A study of Mus musculus with 9 samples.

Results

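Cell cycle and DNA replication genes were examined in the infarct border zone of the mouse heart as a set of 51 genes, listed by symbol, of which 21 serve S phase (the replication members) and 30 serve mitosis and cell division (the mitotic members). Each symbol matched 1 gene row, so all 51 members were found among the 53465 gene rows of the count tables. A filter on low counts kept 39 of them for testing, 19 of the 21 replication members and 20 of the 30 mitotic members. The 12 that did not pass it (Cdc6, E2f8, Ccnb1, Ccnb2, Bub1, Plk1, Cdc25c, Cenpe, Kif20a, Hmmr, Ttk and Melk) are given by their levels. The tissue came from NOD-SCID mice, a strain that lacks mature T and B lymphocytes, and its RNA was sequenced in 9 libraries. In the first group, 3 libraries came from hearts after sham surgery. In the second, 3 came from hearts whose coronary artery had been tied off, which starves part of the ventricle of blood (ligation). In the third, 3 came from ligated hearts that had also received implanted FOXO3-GE-MPCs (the cell group). For cell replicates 2 and 3 the source label gives FOXO4 and FOXO5 in place of FOXO3. Their titles and treatments give FOXO3, which was followed. Age, sex, the time between surgery and sampling, and the number of animals behind each library are not given in the sources used here. The labels name an infarct border zone in the sham hearts too, although these had no ligation. No library was given cells without ligation, and no ligated heart received other cells, so the cells and the act of implanting them cannot be told apart.

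A dividing cell first copies its DNA and then separates the copies. In late G1 phase, cyclin E with Cdk2 releases E2F transcription factors from the retinoblastoma protein, and E2F drives genes for origin licensing (Cdc6, Cdt1, the Mcm2 to Mcm7 helicase), for the replication machine (Pcna) and for nucleotide supply (Rrm1, Rrm2, Tyms, Tk1). Later, Foxm1 and the MuvB complex drive genes of G2 phase and mitosis, among them cyclins A and B with Cdk1, the aurora and polo kinases, kinetochore proteins and spindle motors. Adult cardiomyocytes seldom divide, whereas macrophages, fibroblasts and endothelial cells divide after an infarct. Many replication proteins also serve DNA repair, so their transcripts are found in resting tissue as well.

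Library depth ran from 4549268 gene counts (ligation replicate 1) to 7515052 (ligation replicate 3). Levels are given in CPM, reads of a gene per 1000000 counted reads after correcting each library total with its TMM factor. A count of 3, taken as the smallest level that can be told from 0, corresponded to 0.375 to 0.639 CPM, so a value of 1 CPM rests on at most 8 reads, and such limits cover counting error only. The labels do not say that libraries of a group came from separate animals, and the column headers of sham replicates 1 and 2 share a name stem, as do those of ligation replicates 2 and 3. The p-values therefore measure only the spread between these libraries, which may be partly technical. The chi-square of counts per gene, averaged over genes with at least 10 counts in a pair, was 3.73 for sham replicates 1 and 2 against 2.93 and 3.05 for the other sham pairs. It was 2.23 for ligation replicates 2 and 3 against 2.32 and 3.45 for the other ligation pairs, so stem-sharing libraries differed by more than sampling noise, which gives about 1. Cardiomyocyte markers summed to 21664 to 29659 CPM in every library, as the tissue label states, while Ms4a1, a B cell gene, had 0 counts in all 9 libraries. Parts of the exons of Kif20a (29.3%), Ccne2 (17.4%), Cdc25c (12.7%), Mcm7 (12.6%), Ccna2 (12.5%), E2f8 (11.2%) and Prc1 (11.1%) overlap other genes, and since the strand setting of the counting is not given in the sources used here, the counts of these members are uncertain.

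The promoters of the members were searched for motifs of both kinds of gene, and differences between lists were not tested. Windows of 250 bases before the RefSeq start (build GRCm38.p6, the coordinates of mm10) were available for 19 replication and 24 mitotic members. An E2F motif (TTTCCCGC, TTTCGCGC, TTTGCCGC or TTTGGCGC, either strand) stood in 5 of 19 replication windows (26.3%: Cdk2, Cdc6, Mcm5, Mcm6 and Mcm7) and in 1 of 24 mitotic windows (4.17%: Cdk1), against 1.91% of the first windows of 27025 RefSeq genes. The CHR motif (TTTGAA, either strand), the letters to which MuvB complexes bind, stood in 3 of 19 replication windows (15.8%) and 7 of 24 mitotic windows (29.2%: Mki67, Top2a, Ccnb2, Cdk1, Cdc20, Kif11 and Ect2), against 16.3% of all genes. The CCAAT box, the letters bound by NF-Y, stood in 13 of 19 (68.4%) and 20 of 24 (83.3%), against 34.5%. Among the further replication and mitotic genes described below, the shares were 15.4% and 9.43% for E2F, 10.3% and 37.7% for CHR, and 53.8% and 58.5% for CCAAT, and of 13 windows of a G1 list 38.5% held the E2F motif. Matches are a description of letters, not of binding. The sequences below show the motifs in place: Uhrf1, Mki67 and Cenpf are members whose transcripts fell in the cell group, and Mcm6 and Cdk1, picked after the motifs were known, show the E2F letters. Each runs 5′ to 3′ on the gene's strand, and only bases outside annotated exons are printed. Motifs are in capitals, CCAAT or ATTGG being the CCAAT box, TTTGAA the CHR, and the remaining capitals the E2F motif.
Mcm6, chr1:128359706-128359955, minus strand: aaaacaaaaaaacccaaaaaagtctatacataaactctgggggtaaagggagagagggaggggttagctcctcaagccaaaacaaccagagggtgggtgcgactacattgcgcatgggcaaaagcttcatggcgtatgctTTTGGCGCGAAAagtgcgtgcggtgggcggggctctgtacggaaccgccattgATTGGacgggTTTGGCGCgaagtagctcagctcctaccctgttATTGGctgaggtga
Uhrf1, chr17:56303087-56303320, plus strand: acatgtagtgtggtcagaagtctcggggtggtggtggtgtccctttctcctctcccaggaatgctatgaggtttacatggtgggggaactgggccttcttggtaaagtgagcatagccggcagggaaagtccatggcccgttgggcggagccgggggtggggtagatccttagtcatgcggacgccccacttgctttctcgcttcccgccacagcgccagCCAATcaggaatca
Cdk1, chr10:69352939-69353162, minus strand: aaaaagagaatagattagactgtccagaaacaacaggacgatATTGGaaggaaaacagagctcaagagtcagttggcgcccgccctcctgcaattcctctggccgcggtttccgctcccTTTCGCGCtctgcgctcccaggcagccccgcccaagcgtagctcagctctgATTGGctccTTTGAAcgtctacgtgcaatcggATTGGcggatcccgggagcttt
Mki67, chr7:135716380-135716629, minus strand: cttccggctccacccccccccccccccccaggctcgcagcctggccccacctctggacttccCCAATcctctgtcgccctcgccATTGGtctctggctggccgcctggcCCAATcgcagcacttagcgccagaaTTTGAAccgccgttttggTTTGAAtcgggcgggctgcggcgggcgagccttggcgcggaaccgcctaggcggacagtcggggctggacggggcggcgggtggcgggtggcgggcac
Cenpf, chr1:189688087-189688336, minus strand: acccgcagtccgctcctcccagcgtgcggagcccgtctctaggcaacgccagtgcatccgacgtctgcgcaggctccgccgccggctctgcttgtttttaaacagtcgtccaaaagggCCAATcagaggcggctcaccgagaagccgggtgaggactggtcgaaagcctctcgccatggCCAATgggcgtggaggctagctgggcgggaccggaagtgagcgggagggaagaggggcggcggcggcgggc
In the Mcm6 window a pair of overlapping E2F matches, 1 on each strand, begin 110 and 106 bases before the start, and another match begins 47 bases before it. The printed Uhrf1 and Cenpf windows hold CCAAT boxes and neither of the other motifs. Mki67 holds a pair of CHR motifs 116 and 98 bases before the start, downstream of 3 CCAAT boxes. Cdk1 holds all 3 kinds of letters, and its CHR lies 71 bases before the start. E2f1 would have been printed by the same rule, but its window lies wholly in annotated exons.

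Replication members stood at higher levels than mitotic members in every group. On a scale per length (CPM per kb of exon), the median replication member stood at 0.870 for sham, 1.18 for ligation and 0.823 for the cell group. The median mitotic member stood lower, at 0.180, 0.487 and 0.230 CPM per kb. Pcna, the sliding clamp that holds DNA polymerase on its template, was the highest member in sham at 17.0 CPM per kb. Cenpa, the histone H3 variant that marks the centromere, was the highest mitotic member at 6.44 CPM per kb. In sham hearts 16 of 30 mitotic members averaged under 1 CPM, in ligation 2 of 30 did and in the cell group 14 of 30 did.

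**Figure D1:**
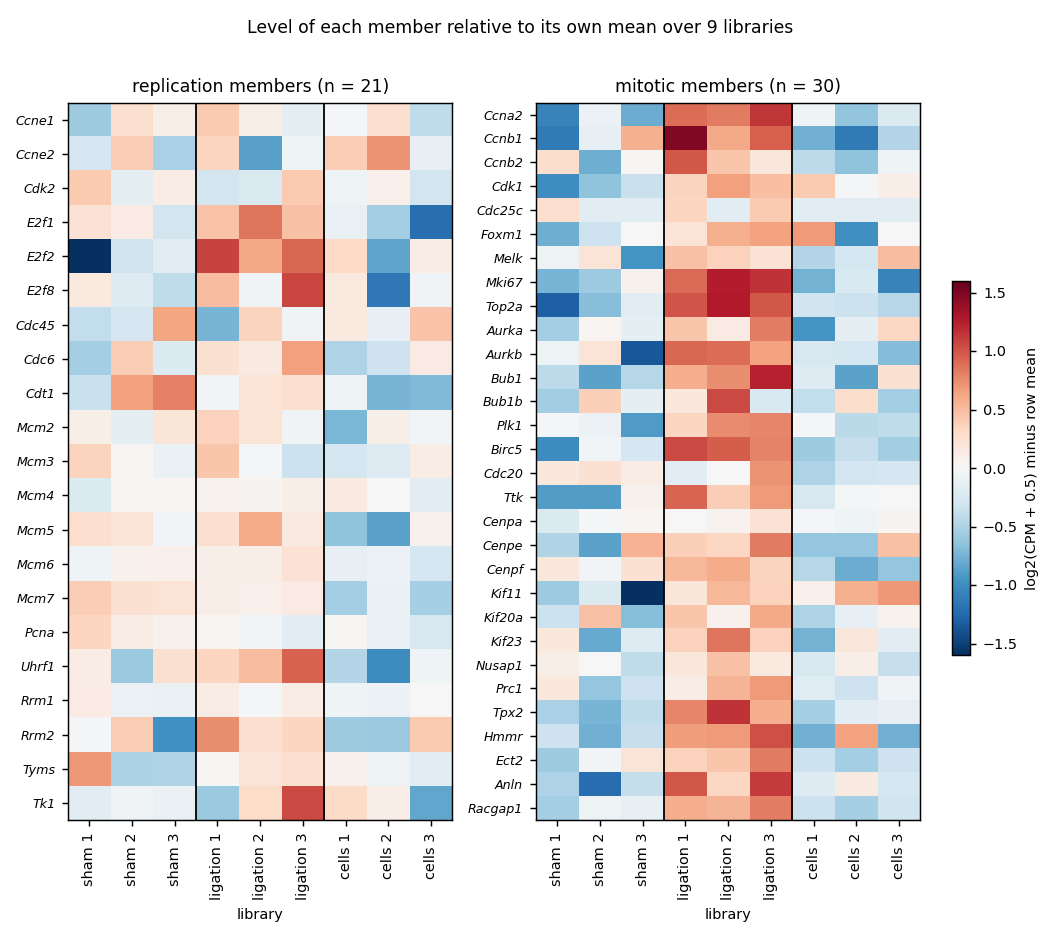
Heat maps of log2(CPM + 0.5) minus each gene's mean over the 9 libraries, for the 21 replication members (left) and the 30 mitotic members (right), with members ordered by role in rows and libraries in columns. The ligation columns are red for most mitotic rows, while most replication rows show no block of colour by group.

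After ligation, 11 of the 20 tested mitotic members passed the test as higher than in sham: Mki67, Top2a, Ccna2, Cdk1, Aurkb, Birc5, Cenpf, Kif11, Tpx2, Anln and Racgap1. Among the 19 tested replication members, E2f2 alone did. That made 12 members higher and 0 lower by edgeR's quasi-likelihood test at an adjusted p-value under 0.05, where 20.1% of the 13825 genes tested were higher and 18% were lower. At an unadjusted p under 0.05 edgeR had 17 members higher and 1 lower (Pcna), and DESeq2 called 9 higher and 0 lower. The median log2 fold change was 1.05 for tested mitotic members and 0.12 for tested replication members, with 0.008 for all genes tested. These counts and medians cover only members that passed the filter, which asks for at least 1.48 CPM by library totals in 3 libraries. Of the 39 tested, 13 met it only with ligation libraries counted: E2f2, Ccne1 and 11 mitotic members (Ccna2, Aurka, Aurkb, Bub1b, Birc5, Foxm1, Kif11, Kif23, Prc1, Tpx2 and Ect2). They entered the test mostly through the group where they were high, so their counts are no support for a difference. Among the 9 mitotic members that met it without ligation libraries, 6 were higher (Mki67, Top2a, Cdk1, Cenpf, Anln and Racgap1) and the median was 1.03. Of the 13388 genes that met it so, 19.95% were higher. With no filter, 13 of all 51 members were higher, and 5343 genes were called as either higher or lower. The share of all genes that were higher in that fit was not computed. The 13 therefore cannot be set against a background and are given as a count only. All 20 tested mitotic members had a positive log2 fold change, from 0.13 (Cdc20) to 2.31 (Ccna2). Counting all 51 members, tested or not, every ligation library stood above every sham library for 22 of 30 mitotic members and 5 of 21 replication members, as it did for 15.4% of the 25606 genes with at least 1 count. Only 13825 of those genes passed the filter, so that share covers many genes with few reads and is not matched to the members in level. Whether more cells were dividing or the dividing cells held more RNA cannot be told apart in bulk tissue. With library totals alone as scaling, the median of all genes tested moved to 0.20, the medians of mitotic and replication members to 1.24 and 0.31, and the count of higher members to 20. The added ones were E2f1 (edgeR adjusted p = 0.0413), Uhrf1 (0.0263), Mcm6 (0.0326), Cenpa (0.0028), Foxm1, Kif23, Prc1 and Ect2 (0.0476). Of the 12 calls, 8 held when any single library was left out. The exceptions were Aurkb, Cenpf, Kif11 and Racgap1, treated with their genes. Summing the libraries that share a header stem, which leaves 2 libraries each of sham and ligation, ended the calls of Aurkb, Cenpf and Kif11 (edgeR adjusted p = 0.0679, 0.0785 and 0.0635).

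With implanted cells, 8 of 20 tested mitotic members were lower than in ligation (Mki67, Top2a, Ccna2, Birc5, Cenpf, Tpx2, Anln and Racgap1), and so were 2 of 19 tested replication members (E2f1 and Uhrf1). These 10 lower members and 0 higher members compare with 5.69% of all genes tested lower and 4.19% higher. At an unadjusted p under 0.05 edgeR had 0 members higher and 19 lower, and DESeq2 called 0 higher and 8 lower. Median log2 fold changes were -1.03 for tested mitotic and -0.33 for tested replication members, with 0.002 for all genes tested. Of the members that met the filter without ligation libraries, 5 of 9 mitotic (Mki67, Top2a, Cenpf, Anln and Racgap1) and 2 of 17 replication members were lower. Of the 13388 genes that met it so, 5.61% were lower. Every library of the cell group stood below every ligation library for 21 of 30 mitotic and 8 of 21 replication members, as for 9.44% of the genes with at least 1 count. That share too is not matched to the members in level. Of the 10 calls, 4 held when any single library was left out (Mki67, Top2a, Birc5 and Cenpf). Without ligation replicate 3 the count of lower members was 6, because Uhrf1, Ccna2, Anln and Racgap1 lost their calls, with edgeR adjusted p = 0.156, 0.0989, 0.235 and 0.0667. The 8 mitotic members that fell here are among the 11 that rose after ligation. Both comparisons share the 3 ligation libraries, so that overlap is a consequence of shared values in part and is given as a count only.

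**Figure D2:**
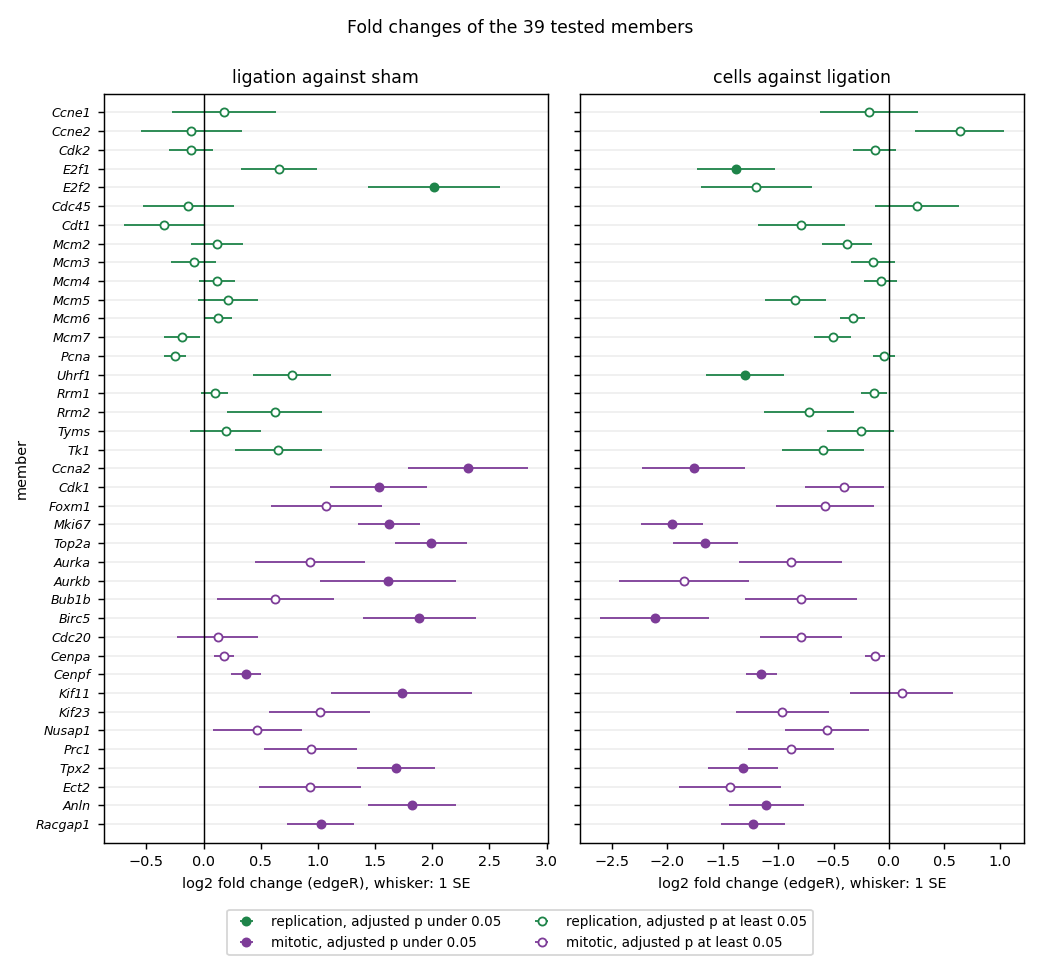
Log2 fold changes by edgeR of the 39 tested members in ligation against sham (left) and cells against ligation (right), with whiskers of 1 SE. Filled points have an adjusted p-value under 0.05. All mitotic points lie right of 0 on the left side, and on the right side only Kif11 among them does.

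Regulators of S phase entry were described first among the replication members. Cyclin E1 (Ccne1), the activator of Cdk2, stood at 0.712, 1.65 and 1.43 CPM in sham, 1.92, 1.45 and 1.12 CPM in ligation, and 1.28, 1.66 and 0.864 CPM in the cell group. Cdk2 itself stood at 17.4, 11.7 and 14.1 CPM in sham, 10.4, 11 and 17.5 CPM in ligation, and 12.2, 13.7 and 10.5 CPM in the cell group. The groups overlapped for both genes, and their log2 fold changes, between -0.18 and 0.18 in both comparisons, were smaller than their SEs of 0.19 to 0.46. Cyclin E2 (Ccne2) overlapped as well, with a mean of 2.11, 2.04 and 3.05 CPM in the 3 groups.

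Of the E2F factors, E2f1 passed the test in cells against ligation and E2f2 after ligation. E2f2 met the filter only with ligation libraries counted. Whether their changes differ from those of cyclin E and Cdk2 was not tested. E2f1, an activator of S phase genes, had 3.20, 2.97 and 2.06 CPM in sham, 3.84, 5.21 and 3.88 CPM in ligation, and 2.41, 1.66 and 0.864 CPM in the cell group. All ligation libraries stood above all others, and cell replicate 3 was lowest. E2f1 fell by 1.38 on the log2 scale in the cell group against ligation (SE 0.35, edgeR adjusted p = 0.0133), a change 2.60-fold in size. Its log2 fold change after ligation was 0.66 (SE 0.33, adjusted p = 0.126). The fall lost its call without ligation replicate 2 (adjusted p = 0.0874) and without cell replicate 3 (adjusted p = 0.0816). E2f2, another activator, was at 0, 0.824 and 0.952 CPM in sham, 2.98, 2.03 and 2.63 CPM in ligation, and 1.56, 0.416 and 1.30 CPM in the cell group. The ligation libraries were again the 3 highest, on 14 to 21 reads each, and sham replicate 1 had no read. E2f2 rose 4.03-fold after ligation (log2 2.01, SE 0.58, edgeR adjusted p = 0.00876), and its log2 fold change in the cell group against ligation was -1.20 (SE 0.50, adjusted p = 0.150). E2f8, a repressor of the family, was not tested and averaged 1.07, 2.07 and 0.949 CPM.

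Licensing factors and the replicative helicase showed no call in either comparison. Cdc6, which loads the helicase onto origins, was not tested and stood at 0.534, 1.48 and 0.794 CPM in sham, 1.28, 1.16 and 1.88 CPM in ligation, and 0.567, 0.694 and 1.15 CPM in the cell group. Its partner Cdt1 averaged 3.50 ± 1.51 CPM (SD, n = 3) after sham surgery, 2.75 ± 0.352 CPM after ligation and 1.6 ± 0.576 CPM with implanted cells. Cdc45, which joins the helicase when origins fire, averaged 2.63, 2.33 and 2.89 CPM with overlapping groups.

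The 6 helicase subunits summed to 67.1 to 69.8 CPM in sham, 66.8 to 73.9 CPM in ligation and 52.6 to 58.3 CPM in the cell group. Sham and ligation sums overlapped, and all 3 sums of the cell group lay below both. Mcm2 had 7.65, 6.42 and 8.25 CPM in sham, 9.38, 8.39 and 6.88 CPM in ligation, and 4.11, 7.63 and 6.91 CPM in the cell group, with overlap throughout. Mcm5 had 6.05, 5.77 and 4.76 CPM in sham, 5.97, 7.67 and 5.5 CPM in ligation, and 2.98, 2.5 and 5.19 CPM in the cell group. Mcm6 had 17.6, 19.4 and 19.7 CPM in sham, 19.8, 20.1 and 22 CPM in ligation, and 16.9, 17.3 and 15.3 CPM in the cell group. For Mcm5, Mcm6 and Mcm7 every library of the cell group was below every ligation library. None of the 6 passed the test: in cells against ligation the log2 fold changes ran from -0.85 (Mcm5, SE 0.27, edgeR adjusted p = 0.0564) to -0.07 (Mcm4, SE 0.15, adjusted p = 0.823). Mcm7 came next at -0.51 (SE 0.16, adjusted p = 0.0545), but 33.4% of its 31-mers occur in other genes, so its count is uncertain. Mcm5 and Mcm7 narrowly missed the threshold, and each passed in some alternatives. Mcm5 did so without cell replicate 3 (adjusted p = 0.0124), with no filter (0.0235) and with library totals alone (0.0463). Mcm7 did so without cell replicate 2 (0.0169) and with library totals alone (0.0402). After ligation the 6 log2 fold changes lay between -0.19 and 0.21.

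Pcna stood at 45.9, 39.2 and 37.6 CPM in sham, 36.9, 34.9 and 31.9 CPM in ligation, and 36.6, 33.0 and 30.1 CPM in the cell group. All ligation libraries were below all sham libraries, although the log2 fold change of -0.25 (SE 0.10) had an adjusted p of 0.0527 and crossed the threshold in several alternatives, such as RLE scaling (adjusted p = 0.0458), sham replicate 3 left out (0.0353) or ligation replicate 1 left out (0.0469). Ligation and the cell group overlapped for Pcna, with a log2 fold change of -0.05 (SE 0.10). A share of 23.3% of its 31-mers occurs in other genes. Uhrf1, which serves the upkeep of DNA methylation, had 3.03, 1.65 and 3.33 CPM in sham, 3.62, 4.05 and 5.75 CPM in ligation, and 1.84, 1.11 and 2.59 CPM in the cell group. The cell group was below ligation in every library and overlapped with sham. Uhrf1 fell by 1.30 on the log2 scale (SE 0.35, edgeR adjusted p = 0.0204), with 24.2% of its 31-mers shared. Leaving out ligation replicate 3 (adjusted p = 0.156), cell replicate 1 (adjusted p = 0.0668) or cell replicate 2 (adjusted p = 0.101) ended that call.

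Nucleotide supply genes did not separate the groups. Rrm1, the large subunit of ribonucleotide reductase, had 21, 18 and 17.8 CPM in sham, 20.9, 19.0 and 20.9 CPM in ligation, and 18.2, 17.9 and 19.2 CPM in the cell group. Rrm2, its S phase subunit, had 2.31, 3.29 and 0.952 CPM, then 4.26, 2.89 and 3.13 CPM, then 1.42, 1.39 and 3.31 CPM in the same order of groups. Both overlapped between all pairs of groups, Rrm2 with a spread as wide as its differences. Tyms, which makes thymidylate, had 7.48, 2.97 and 3.02 CPM in sham, 4.47, 5.21 and 5.38 CPM in ligation, and 4.68, 4.16 and 3.89 CPM in the cell group. Tk1, the salvage enzyme for thymidine, had 3.03, 3.29 and 3.17 CPM in sham, 2.13, 4.34 and 7.75 CPM in ligation, and 4.40, 3.75 and 1.73 CPM in the cell group. Sham replicate 1 was the highest library for Tyms, and the ligation libraries alone covered most of the range of Tk1. Log2 fold changes of the 4 genes ran from 0.10 to 0.66 after ligation and from -0.72 to -0.14 in the cell group, and none passed the test with all libraries. Tk1 did so after ligation when ligation replicate 1 was left out (log2 0.94, adjusted p = 0.0423).

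**Figure D3:**
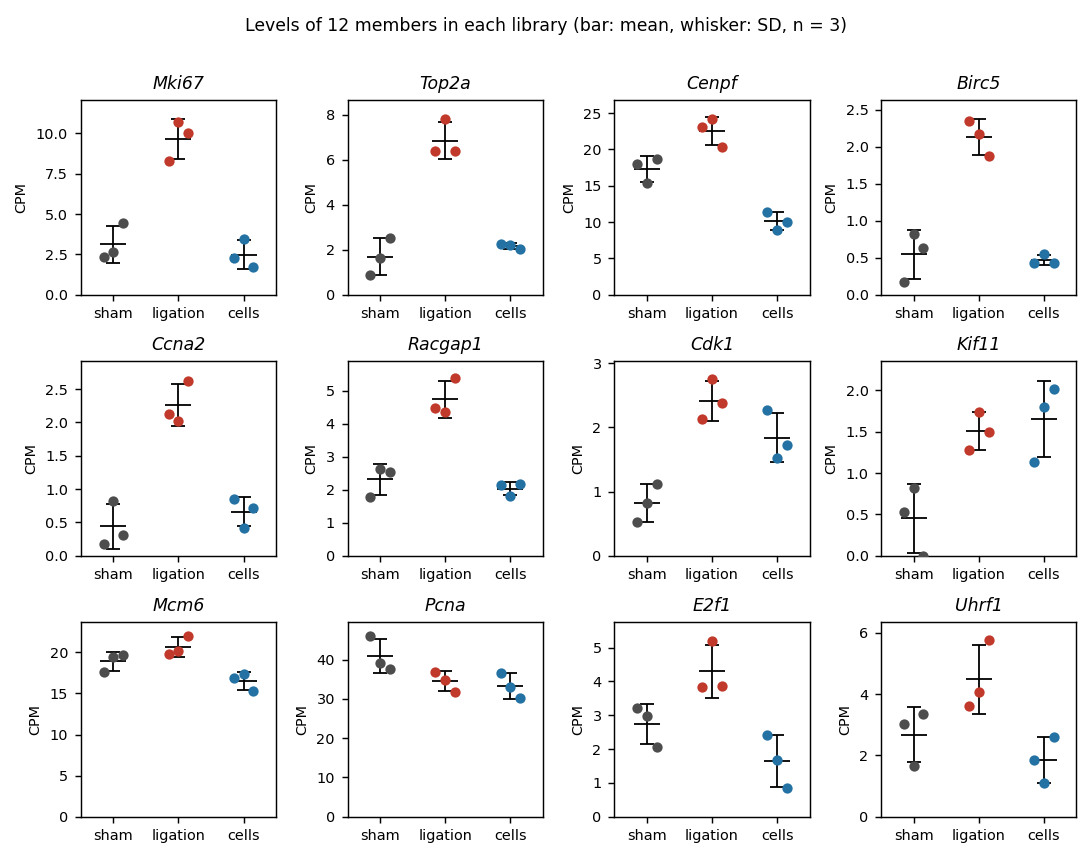
CPM of 12 members in each library (points) by group, with the mean and SD (n = 3). Mki67, Top2a, Cenpf, Birc5, Ccna2 and Racgap1 are highest in the 3 ligation libraries, Cdk1 and Kif11 stay above sham in the cell group, and Mcm6 and Pcna vary little beside their level.

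Among the mitotic members, the proliferation antigen Mki67 (Ki-67, which coats mitotic chromosomes) and Top2a, the topoisomerase that untangles them, had the lowest edgeR adjusted p-values after ligation. In cells against ligation Cenpf, described below, had the lowest. Mki67 had 2.31, 2.64 and 4.44 CPM in sham, 8.31, 10.7 and 10 CPM in ligation, and 2.27, 3.47 and 1.73 CPM in the cell group. Top2a had 0.890, 1.65 and 2.54 CPM in sham, 6.39, 7.81 and 6.38 CPM in ligation, and 2.27, 2.22 and 2.02 CPM in the cell group. For both, each ligation library stood far above the other 6, and sham and the cell group overlapped. Mki67 rose 3.08-fold after ligation (log2 1.62, SE 0.27, edgeR adjusted p = 7.97e-05) and was 3.89-fold lower in the cell group than in ligation (log2 -1.96, SE 0.28, adjusted p = 5.78e-05). Top2a rose 3.97-fold (log2 1.99, SE 0.32, adjusted p = 3.91e-05) and was 3.15-fold lower in the cell group (log2 -1.66, SE 0.29, adjusted p = 0.000677). Neither gene lost either call under any of the 17 alternatives.

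The cyclins and kinase of mitotic entry were at a few reads per library in sham. Ccna2 (cyclin A2), which works in S phase and G2, had 0.178, 0.824 and 0.317 CPM in sham, 2.13, 2.03 and 2.63 CPM in ligation, and 0.851, 0.416 and 0.720 CPM in the cell group. The ligation libraries held 10 to 21 reads and the others at most 6, so Ccna2 passed the filter only through ligation. Ccna2 rose 4.97-fold after ligation (log2 2.31, SE 0.52, edgeR adjusted p = 0.00138) and was 3.38-fold lower in the cell group (log2 -1.76, SE 0.46, adjusted p = 0.0177). The latter call was lost with DESeq2 (adjusted p = 0.0730), without ligation replicate 3 (0.0989), without cell replicate 2 (0.0856) and without cell replicate 3 (0.0545). Ccnb1 (cyclin B1), the partner of Cdk1, was not tested in the main fit and had 0, 0.494 and 1.11 CPM in sham, 2.56, 1.16 and 1.62 CPM in ligation, and 0.142, 0 and 0.288 CPM in the cell group. Every ligation library was above all others, on 8 to 13 reads, while the cell group had 0 to 2 reads. With the filter removed, edgeR gave Ccnb1 an adjusted p of 0.000732 in cells against ligation and 0.0644 in ligation against sham. Its 31-mers are shared for 27.8%, which makes its count uncertain. Ccnb2 averaged 0.843, 1.64 and 0.616 CPM, and Cdc25c, the phosphatase that activates Cdk1, had at most 2 reads in any library.

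Cdk1, the kinase that drives mitosis, passed the test after ligation and not in the cell group. It had 0.534, 0.824 and 1.11 CPM in sham, 2.13, 2.75 and 2.38 CPM in ligation, and 2.27, 1.53 and 1.73 CPM in the cell group. Ligation and the cell group overlapped, and all 6 of their libraries were above sham. Cdk1 rose 2.89-fold after ligation (log2 1.53, SE 0.42, edgeR adjusted p = 0.00687), and its log2 fold change in cells against ligation was -0.40 (SE 0.36, adjusted p = 0.559). Whether that differs from the changes of the cyclins was not tested. Foxm1, the transcription factor of G2 and mitotic genes, had 0.712, 1.15 and 1.59 CPM in sham, 1.92, 2.60 and 2.75 CPM in ligation, and 2.84, 0.555 and 1.58 CPM in the cell group. Its cell libraries spanned the range of both other groups, with the highest and the lowest of all 9 values among them. Foxm1 did not pass the test after ligation (log2 1.08, SE 0.49, adjusted p = 0.0887; 0.0497 without cell replicate 2, 0.0421 with a fit of the 2 groups and 0.0388 with library totals alone) or in the cell group. Melk, a kinase whose transcript peaks in mitosis, averaged 0.620, 1.15 and 0.759 CPM untested.

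Of the 8 mitotic kinases and checkpoint genes, 5 were tested, with 2 higher after ligation and 1 lower in the cell group, beside 20.1% and 5.69% of all genes. The called genes, Birc5 and Aurkb, met the filter only with ligation libraries counted, so these counts are no support for a difference. Birc5 (survivin), which targets aurora B to centromeres, had 0.178, 0.824 and 0.635 CPM in sham, 2.34, 2.17 and 1.88 CPM in ligation, and 0.426, 0.555 and 0.432 CPM in the cell group. The 3 ligation libraries, on 11 to 15 reads, stood well above the other 6, and only they reached the filter's minimum. Birc5 rose 3.70-fold after ligation (log2 1.89, SE 0.49, edgeR adjusted p = 0.00444) and was 4.33-fold lower in the cell group (log2 -2.11, SE 0.49, adjusted p = 0.00690). Both calls held under all 17 alternatives. Aurkb, the kinase of that complex, had 0.712, 0.988 and 0 CPM in sham, 1.92, 1.88 and 1.5 CPM in ligation, and 0.567, 0.555 and 0.288 CPM in the cell group. Ligation was highest in every library, and Aurkb too passed the filter only through it. Aurkb passed after ligation (log2 1.61, SE 0.59, adjusted p = 0.0368) and not in the cell group (log2 -1.85, SE 0.59, adjusted p = 0.0516). The call after ligation was lost with DESeq2 (adjusted p = 0.0827), with no filter (0.0523), with stem-sharing libraries summed (0.0679) and when sham replicate 1 (0.0603), sham replicate 3 (0.156) or ligation replicate 1, 2 or 3 (0.0775, 0.0958 and 0.0616) was left out. In cells against ligation Aurkb passed without sham replicate 3 (adjusted p = 0.0228), with a fit of the 2 groups (0.0206) and with library totals alone (0.0470). Plk1, the polo kinase, was not tested and had 0.712, 0.659 and 0.159 CPM in sham, 1.07, 1.59 and 1.62 CPM in ligation, and 0.709, 0.416 and 0.432 CPM in the cell group, again with all ligation libraries on top. Bub1 and Ttk, checkpoint kinases, averaged 1.16 and 1.0 CPM in ligation and at most 0.377 CPM in the other groups. With the filter removed, Bub1 passed as higher after ligation (adjusted p = 0.0074). Aurka, Bub1b and the anaphase activator Cdc20 did not pass, and Cdc20, with 26.7% of its 31-mers in other genes, differed least after ligation (log2 0.13, SE 0.35).

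At the kinetochore, the attachment site of spindle fibres, Cenpa and Cenpf held the highest counts of the mitotic list. Cenpa had 33.8, 38.9 and 40.5 CPM in sham, 39.8, 41.2 and 46.6 CPM in ligation, and 39, 37.9 and 40.9 CPM in the cell group. Its groups overlapped, and its log2 fold changes were 0.18 (SE 0.09) after ligation and -0.13 (SE 0.09) in the cell group. Cenpf, a large protein of kinetochores and nuclear envelope, had 18, 15.3 and 18.7 CPM in sham, 23.0, 24.2 and 20.4 CPM in ligation, and 11.3, 8.88 and 10.1 CPM in the cell group. The 3 groups did not overlap, and the cell group lay below sham as well. Cenpf was 2.22-fold lower in the cell group than in ligation (log2 -1.15, SE 0.14, edgeR adjusted p = 6.91e-06), which held under all 17 alternatives. Its rise after ligation was 1.29-fold (log2 0.37, SE 0.13, adjusted p = 0.0296) and was lost with DESeq2 (0.0838), with stem-sharing libraries summed (0.0785) and without sham replicate 2 (0.129), ligation replicate 1 (0.0641) or ligation replicate 2 (0.117). Cenpe, a kinetochore motor, was not tested and averaged 0.597, 1.23 and 0.571 CPM.

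Of the 5 tested spindle genes, 2 rose after ligation and 1 fell in the cell group, beside 20.1% and 5.69% of all genes. Tpx2, Kif11, Kif23 and Prc1 met the filter only with ligation libraries counted, so these counts are no support for a difference. Tpx2, which nucleates spindle microtubules, had 1.42, 1.15 and 1.59 CPM in sham, 4.26, 5.64 and 3.63 CPM in ligation, and 1.42, 1.94 and 2.02 CPM in the cell group. Tpx2 rose 3.21-fold (log2 1.68, SE 0.34, edgeR adjusted p = 0.000521) and was 2.5-fold lower in the cell group (log2 -1.32, SE 0.32, adjusted p = 0.00898), a call lost without ligation replicate 2 (0.0836) or cell replicate 1 (0.0568). Kif11, the motor that pushes spindle poles apart, had 0.534, 0.824 and 0 CPM in sham, 1.28, 1.74 and 1.5 CPM in ligation, and 1.13, 1.80 and 2.02 CPM in the cell group. Its cell libraries overlapped with ligation and lay above sham. Kif11 rose after ligation (log2 1.73, SE 0.62, adjusted p = 0.0317), and its log2 fold change in cells against ligation was 0.11 (SE 0.46), the only positive value among tested mitotic members. The rise was lost with DESeq2 (0.0557), with stem-sharing libraries summed (0.0635), without sham replicate 1 (0.0602) or 3 (0.139), and without ligation replicate 2 (0.0932) or 3 (0.0743). Kif23, Nusap1 and Prc1 had higher means in ligation than in either other group and did not pass, although Prc1 did after ligation without sham replicate 1 (0.0475), and with library totals alone Prc1 (0.0291) and Kif23 (0.0300) did. Kif20a and Hmmr were not tested, with 1.22 and 0.990 CPM in ligation. With the filter removed, Hmmr, a spindle assembly factor, passed as higher after ligation (log2 2.98, edgeR adjusted p = 0.0227).

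The cytokinesis genes Anln, Racgap1 and Ect2, which build and position the contractile ring, were each above all sham and all cell-group libraries in every ligation library. Anln had 1.42, 0.659 and 1.59 CPM in sham, 4.90, 2.89 and 5.38 CPM in ligation, and 1.84, 2.5 and 1.73 CPM in the cell group. Racgap1 had 1.78, 2.64 and 2.54 CPM in sham, 4.47, 4.34 and 5.38 CPM in ligation, and 2.13, 1.80 and 2.16 CPM in the cell group. Both rose after ligation, Anln 3.54-fold (log2 1.82, SE 0.39, edgeR adjusted p = 0.000765) and Racgap1 2.04-fold (log2 1.03, SE 0.29, adjusted p = 0.00846; without ligation replicate 3, 0.0590). In the cell group Racgap1 was 2.34-fold lower than in ligation (log2 -1.22, SE 0.29, adjusted p = 0.00852), a call lost without ligation replicate 3 (0.0667). Anln was 2.15-fold lower (log2 -1.10, SE 0.34, adjusted p = 0.0444), and only 8 of 17 alternatives kept that call. It was lost with DESeq2 (0.101), with sham replicate 1 (0.0545) or 3 (0.0504) left out, with ligation replicate 1 (0.110) or 3 (0.235) left out, and with any cell replicate left out (0.138, 0.0547 and 0.145). Ect2 did not pass in either comparison (in the cell group log2 -1.43, SE 0.46, adjusted p = 0.0548).

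Summed over all 30 mitotic members, the level was 76.2 to 89.5 CPM in sham, 128 to 139 CPM in ligation and 77.3 to 82.0 CPM in the cell group. Ligation lay above both others in every library, and sham and the cell group overlapped. The 21 replication members summed to 163 to 181 CPM in sham, 170 to 179 CPM in ligation and 140 to 147 CPM in the cell group, where sham and ligation overlapped and the cell group lay below both. Cenpa and Cenpf held more of the mitotic sum than any other member, and without them, a choice made after seeing the values, it was 24.4 to 30.3, 65.2 to 72.3 and 27.7 to 31 CPM. The ratio of the mitotic to the replication sum was 0.489 ± 0.0644 (SD, n = 3) for sham, 0.770 ± 0.0361 for ligation and 0.548 ± 0.0315 for the cell group. With counts per kb of exon in place of CPM it was 0.319, 0.527 and 0.373. These sums are descriptions without a test.

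**Figure D4:**
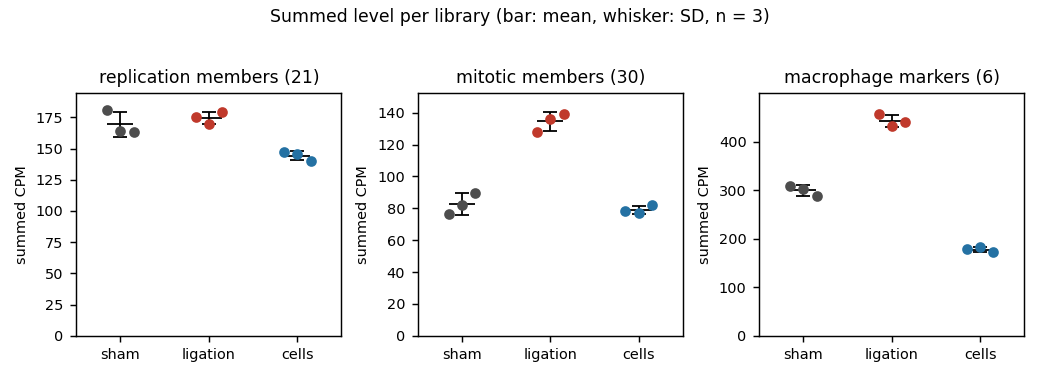
Summed CPM per library of the replication members, the mitotic members and 6 macrophage markers (points), with the mean and SD by group (n = 3). The mitotic sum of ligation (128 to 139 CPM) lies above both other groups, the replication sum of the cell group (140 to 147 CPM) lies below both, and the macrophage sum orders the groups as ligation, sham, cells.

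Between the cell group and sham, 6 of 39 tested members differed. There were 2 higher (Cdk1 and Kif11) and 4 lower (Cdt1, Mcm7, Pcna and Cenpf), where 21% of all genes tested were higher and 20% lower by edgeR. Median log2 fold changes were -0.20 for tested replication and 0.05 for tested mitotic members. Cenpf fell by 0.78 on the log2 scale (SE 0.14, adjusted p = 0.000183) and Mcm7 by 0.70 (SE 0.16, adjusted p = 0.00167), and both calls held under all 17 alternatives. Kif11 was 3.59-fold higher (log2 1.85, SE 0.60, adjusted p = 0.0183), a call lost without sham replicate 3 (0.0887), where it had no read, or cell replicate 3 (0.0643). Cdk1 was 2.18-fold higher (log2 1.13, SE 0.44, adjusted p = 0.0452), which 5 of 17 alternatives kept. Among the lost were the fits without sham replicate 1 (0.153) or 2 (0.104), without any 1 of the ligation replicates (0.0543, 0.0583 and 0.0612), without cell replicate 1 (0.154) or 3 (0.0741), and with stem-sharing libraries summed (0.0816). Cdt1 fell by 1.13 (SE 0.38, adjusted p = 0.0226; 0.0782 to 0.125 without sham replicate 2 or 3 or cell replicate 2 or 3). Pcna fell by 0.30 (SE 0.10, adjusted p = 0.0204), and lost the call with library totals alone as scaling (0.266), without sham replicate 1 (0.126) and without cell replicate 3 (0.103). Mki67 and Top2a had log2 fold changes of -0.34 (SE 0.33) and 0.33 (SE 0.37), so a difference from sham was not detectable for either.

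Wider lists of cell cycle genes were read beside the members. Of 41 tested among 50 further replication genes, edgeR called 0 higher (2 at an unadjusted p under 0.05, and 0 by DESeq2) and 9 lower after ligation (Pold1, Pold2, Rfc2, Orc6, Dut, Rpa3, Ung, Timeless and Dnmt1), the lowest adjusted p being 1.77e-05 for Ung, which removes uracil from DNA (log2 -0.81, SE 0.12). The share of this list that was lower lay near the 18% of all genes tested, and its median log2 fold change was -0.08. In the cell group against ligation, Orc4, a subunit of the origin recognition complex, alone passed, with 22.6 to 25.6 CPM in ligation and 29.1 to 34.7 CPM in the cell group (log2 0.40, SE 0.10, adjusted p = 0.0151, and 0.0931 without ligation replicate 2 or 0.0808 without cell replicate 2). Of 27 tested among 65 further mitotic genes, 6 were higher after ligation (Cdca8, Aspm, Ube2c, Cks2, Tacc3 and Wee1) and 2 lower (Pttg1 and Hjurp). That share of higher genes lay near the 20.1% of all genes tested, 10 of the 27 log2 fold changes were negative, and the median was 0.32. Every ligation library stood above every sham library for 18 of the 65, beside 15.4% of the genes with at least 1 count. The filter bears on this list too: 7 of the 27 met it only with ligation libraries counted, among them Cdca8, Aspm, Ube2c and Cks2. Of the 20 that met it without them, 2 were higher (Tacc3 and Wee1), 2 were lower, and the median was 0.03. Ube2c, which hands ubiquitin to mitotic cyclins, had 1.07, 1.32 and 0.476 CPM in sham, 3.84, 4.05 and 3.0 CPM in ligation, and 1.13, 0.139 and 1.44 CPM in the cell group. Only its ligation libraries reached the filter's minimum. Its difference in the cell group (log2 -1.98, SE 0.47, edgeR adjusted p = 0.00829) and that of Espl1, the protease separase (log2 -1.45, SE 0.41, adjusted p = 0.0298), were the only calls of this list there, where its median was -0.42 and 5.69% of all genes tested were lower. At an unadjusted p under 0.05 edgeR had 9 of the 27 lower, DESeq2 called 1, and every library of the cell group lay below every ligation library for 25 of the 65, beside 9.44% of the genes with at least 1 count. The count of Ube2c is uncertain, since 22.8% of its exon overlaps Tnnc2, a gene of fast skeletal muscle, and 25.3% of its 31-mers are shared. The call of Espl1 was lost with DESeq2 (0.0607) and without ligation replicate 1 (0.100) or 3 (0.107) or cell replicate 1 (0.137) or 2 (0.0796). Pttg1, the securin that holds separase inactive, moved the other way: its level was 31 to 37.9 CPM in sham, 3.62 to 6.37 CPM in ligation and 2.74 to 4.54 CPM in the cell group. It fell by 2.82 on the log2 scale after ligation (SE 0.18, adjusted p = 8.4e-11). Hjurp, the chaperone that deposits Cenpa, went from 29.5 to 32.9 CPM in sham to 11.5 to 18.7 CPM in ligation (log2 -1.05, SE 0.14, adjusted p = 3.06e-06). Pttg1 and Hjurp were named after their values were seen. All 19 genes of a G1 list were tested, with 5 higher (Ccnd2, E2f3, E2f6, Tfdp1 and Tfdp2) and 2 lower (Ccnd1 and Rb1) after ligation, beside 20.1% and 18% of all genes, and 0 called in the cell group against ligation, where 2 were higher and 0 lower at an unadjusted p under 0.05 and DESeq2 called 0.

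Markers of several cell types were read beside the members. Macrophage markers (Adgre1, Cd68, Csf1r, C1qa, Fcgr1 and Mrc1) summed to 287 to 309 CPM in sham, 432 to 457 CPM in ligation and 172 to 183 CPM in the cell group. By edgeR 5 of 6 were higher after ligation and 6 of 6 lower in the cell group against ligation. Skeletal muscle markers summed to 3.56 to 7.25, 9.98 to 15.1 and 1.99 to 3.89 CPM, with 2 of 4 tested higher and then 3 of 4 lower, and Myh4 was at 0 counts in sham and the cell group. Of 4 tested erythroid genes, Alas2 and Slc4a1 were higher after ligation and lower in the cell group against ligation, while Tfrc, the transferrin receptor, was higher in the cell group (157 to 172 CPM) than in ligation (133 to 150 CPM). Epor passed in neither comparison, and Klf1, a transcription factor of erythroid precursors, was not tested and averaged at most 0.377 CPM in any group. Neutrophil markers summed to 37.5 to 44.9, 13.4 to 20.5 and 5.47 to 6.52 CPM. Mesothelial markers summed to 33.0 to 44.3 CPM in sham, 228 to 270 CPM in ligation and 187 to 190 CPM in the cell group, where 6 of 6 rose after ligation and 3 of 6 fell in the cell group. Fibroblast markers summed to 1686 to 1743, 2171 to 2246 and 2189 to 2262 CPM, with 3 of 6 higher and 1 lower after ligation. Endothelial markers summed to 1891 to 1996, 1249 to 1329 and 1356 to 1394 CPM, with 6 of 6 lower after ligation. Smooth muscle and pericyte markers summed to 1503 to 1552, 1061 to 1090 and 1070 to 1113 CPM, with 4 of 5 tested lower and 1 higher, and of the cardiomyocyte markers 3 of 6 were lower and 1 higher. In the cell group against ligation, 2 of 5 tested smooth muscle and pericyte markers were lower (Kcnj8 and Cspg4) and 1 was higher (Acta2), while 1 of 6 endothelial markers was higher. The part of any cell type in the changes of the members was not tested.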

How the data were processed

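RNA was measured by sequencing in 9 libraries, 3 per group, from border zone tissue of NOD-SCID mouse hearts. TRIzol served for extraction of total RNA and the NEBNext Ultra RNA kit for library preparation, per the labels' protocols. The authors deposited 1 table of raw counts of reads for each library, with no normalization. The submitters' processing notes name build mm10, while the aligner, the counter, the strand setting and the annotation release are not given in the sources used here. Of the gene IDs, 53360 of 53465 received a symbol from GENCODE. Reads outside genes or ambiguous between genes (12.3 to 13.6% of each table) were left out.

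Counts were analysed in R 4.3.3 with edgeR 4.0.16: filterByExpr, TMM factors, estimateDisp, glmQLFit and glmQLFTest on all 9 libraries with 1 mean per group, two-sided, with Benjamini-Hochberg adjustment over 13825 genes and a threshold of 0.05. The SE of a log2 fold change was taken as its absolute value over the root of the F statistic. The procedure was tested on simulated data. All 3 pairs of groups were compared. No set test was run.

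Members and lists were chosen with earlier results of these data known. The named genes were any of the members, those of the further lists past the threshold with the largest change in the cell group (up to 3 a list), and a few named as chosen after their values were seen. Group labels came from titles and treatments. Alternatives were RLE scaling, library totals alone, no filter, a mean of at least 1 CPM, DESeq2 1.42.0, fits of 2 groups, a replicate block, each library left out, and 3 chosen after seeing the data: libraries with a shared header stem summed, the mitotic list without Cenpa and Cenpf, and only members that pass the filter without the ligation libraries. Promoter windows and motif searches used RefSeq sequences of build GRCm38.p6. The share of 31-mers in other genes and the exon overlap were computed from GENCODE transcripts. Whether reads of the implanted cells enter the counts was not tested. Figures were drawn with matplotlib 3.10.9.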

Additional observations from a re-analysis of the deposited data

How the results depend on the processing

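Depth limits what can be said of the mitotic members: many hold fewer than 10 reads in a sham or cell-group library, and 10 of 30 were not tested. The count of all genes past the threshold stayed within 1.5 times its main value in all 3 comparisons under every alternative run. Calls that depend on a single library stand beside their genes. In all, 1343 of 1456 refitted values of members kept direction and side of the threshold; these cover the tested members in both comparisons with ligation and, in cells against sham, only the 8 members given there. Where a value below moved, the cause was not tested.

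In ligation against sham, the members lower numbered 1 (Pcna) with RLE scaling, with a fit of the 2 groups and with a replicate block, and 0 to 1 with a library left out. The members higher numbered 20 with library totals alone, and 6 over members that pass the filter without ligation libraries (1 in cells against sham), a choice made after seeing the data. With those totals the medians of replication and mitotic members were 0.31 and 1.24, and the mitotic median was 1.30 without Cenpa and Cenpf. Leaving out a library gave mitotic medians of 1.08 to 1.27 after ligation and -1.27 to -1.04 in cells against ligation, and 6 to 11 members lower in the latter. In cells against sham, the replication median was -0.0401 with library totals alone. The members higher there numbered 1 with no filter, with DESeq2, with the replicate block and with stem-sharing libraries summed, 0 with a fit of the 2 groups, and 0 to 2 with a library left out.

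Replicate numbers did not pair the libraries: same-numbered libraries of different groups correlated at -0.12 to 0.14. The block left 1230 genes called in cells against ligation, against 1365 without it, and Anln lost its call there (adjusted p = 0.0679).

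Among these values, each that changed sign belonged to a gene that had not passed the test in that same comparison. With library totals alone in ligation against sham, Ccne2 was 0.0813, Cdk2 0.0782, Cdc45 0.0537, Mcm3 0.102 and Mcm7 0.0016 on the log2 scale. With a library left out, ligation against sham gave -0.0858 to 0.408 for Ccne1, -0.398 to 0.296 for Ccne2, -0.436 to 0.0407 for Cdk2, -0.454 to 0.357 for Cdc45, -0.295 to 0.0907 for Mcm3, -0.0288 to 0.757 for Tyms, -0.0216 to 1.02 for Bub1b and -0.322 to 0.290 for Cdc20. In cells against ligation the ranges were -0.426 to 0.0227 for Ccne1, -0.257 to 0.178 for Cdk2, -0.334 to 0.0671 for Mcm3, -0.156 to 0.0072 for Mcm4, -0.120 to 0.0178 for Pcna and -0.0515 to 0.321 for Kif11. In cells against sham, where sign changes of the other members were not examined, Mki67 ran from -0.653 to 0.0093.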

Other observations

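Genes that act before S phase or hold back mitosis had values of their own. Wee1, the kinase that keeps Cdk1 inactive, had 7.30, 12.8 and 11.3 CPM in sham, 24.7, 24.9 and 26.9 CPM in ligation, and 20.1, 24.8 and 24.5 CPM in the cell group. Every library of both ligated groups stood above every sham library, with a log2 fold change of 1.28 after ligation (SE 0.16, edgeR adjusted p = 1.35e-06) and -0.14 (SE 0.14) in cells against ligation. Ccnd2 (cyclin D2), which pairs with Cdk4 and Cdk6 in G1, had 82.9, 76.4 and 97.8 CPM in sham, 126, 115 and 119 CPM in ligation, and 117, 124 and 127 CPM in the cell group. Its log2 fold change after ligation was 0.48 (SE 0.08, edgeR adjusted p = 4.35e-05), and in cells against ligation it was 0.04 (SE 0.07). Wee1 and Ccnd2 were named after their values were seen.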
